A study of Mus musculus with 24 samples.

Results

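The major urinary proteins (Mups) are small secreted lipocalins, barrel-shaped proteins that carry volatile pheromones. Mouse liver makes them in large amounts, more in males than in females, and they pass through the blood into the urine. Their genes are known to respond to pulses of growth hormone through Stat5, and also to thyroid hormone and glucocorticoids. Here 10 members of the family, Mup1, Mup2, Mup3, Mup7, Mup10, Mup11, Mup14, Mup17, Mup20 and Mup21, were taken by name from a table of 54532 genes and followed across livers of 6 genotypes. The table holds 38 further rows of the family, 11 of them protein-coding and 27 pseudogenes, which are used only where they bear on the members.

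RNA-seq was performed on whole liver from 24 male mice of 8 to 10 weeks, killed after a 24 h fast, with 4 livers per genotype. Rab30KO mice lacked exon 4 of Rab30 throughout the body, and Rab30 Ctrl were their wild-type littermates. Rab30L-/-, Cpt2L-/- and DKO mice carried floxed Rab30, floxed Cpt2 or both, deleted in hepatocytes by Cre under the albumin promoter, and ff;ff mice were littermates of the DKO with both genes floxed and no Cre. Cpt2 is needed to bring long-chain fatty acids into mitochondrial oxidation, and Rab30 is a small GTPase of the Golgi. The Rab30L-/- and Cpt2L-/- mice are compared here with ff;ff, which were not stated to be their littermates.

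The libraries held between 11801027 and 24497738 counted reads, with a median of 14358966. Reads over the targeted genes followed the genotypes in some groups only. Rab30 lay between 5.39 and 17.4 CPM (reads of a gene scaled to library size) in the libraries labelled Rab30KO, between 6.64 and 30.1 in those labelled Rab30 Ctrl, between 101 and 231 in those labelled DKO, and between 122 and 188 in those labelled Cpt2L-/-, so that DKO did not lie below Cpt2L-/-. It averaged 17.1 CPM in Rab30L-/- (10.4 to 26.6) and 36.6 in ff;ff (25.9 to 44.6). For Cpt2, the libraries labelled Cpt2L-/- spanned 95.3 to 167 CPM, around the 128 to 139 CPM of the ff;ff livers, whereas the DKO livers lay below these at 96.1 to 120 CPM. The paper reported that Rab30 mRNA and protein were absent in Rab30KO mice. It also measured Rab30 and Cpt2 mRNA by qRT-PCR, and Rab30 protein by immunoblot, in livers of its liver knockouts. Reads over the deleted exons alone were not analysed here, the reason for these levels was not tested, and every comparison names the libraries by their labelled genotype. The livers were rich in hepatocyte transcripts, with a summed 47582 to 132816 CPM over 6 hepatocyte markers. The summed markers of macrophages, stellate cells, endothelium, bile duct and blood stayed at or below 1036 CPM for each list, and no listed marker was at 0 in all libraries of a group. In bulk tissue fewer cells of a type and less RNA per cell cannot be told apart.

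The 10 members lie on the minus strand of chromosome 4 between 60066469 and 62150863 of GRCm38, a stretch of 2.08 Mb. Their coding sequences are 540 to 552 bases long in the GENCODE annotation. Mup1, Mup2, Mup7, Mup10, Mup11, Mup14 and Mup17 were nearly copies of each other, at 98.3% to 99.4% identity over their 21 pairs, which is 3 to 9 differing positions. These 7 were 82.1% to 91.3% identical to Mup3, Mup20 and Mup21. Mup3 and Mup21 were 94.7% identical to each other. A stretch of 90 coding bases in exon 2 is printed for all members to show how they differ from each other there. It was chosen as the stretch within 1 exon of every member with the most distinct sequences. Members alike in it differ elsewhere in their coding sequence, and other rows of the family were not compared over it. Capitals mark bases that differ from the commonest base among the 10.
Mup1 (chr4:60501284-60501373): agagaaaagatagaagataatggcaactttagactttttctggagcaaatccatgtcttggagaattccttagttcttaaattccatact
Mup2 (chr4:60139221-60139310): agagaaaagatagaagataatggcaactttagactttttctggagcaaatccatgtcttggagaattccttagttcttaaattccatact
Mup3 (chr4:62086802-62086891): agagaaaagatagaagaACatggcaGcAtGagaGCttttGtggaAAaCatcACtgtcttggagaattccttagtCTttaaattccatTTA
Mup7 (chr4:60069735-60069824): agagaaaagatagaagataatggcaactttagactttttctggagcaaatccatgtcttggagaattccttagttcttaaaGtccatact
Mup10 (chr4:60581523-60581612): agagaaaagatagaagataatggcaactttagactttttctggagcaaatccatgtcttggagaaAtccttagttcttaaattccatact
Mup11 (chr4:60661732-60661821): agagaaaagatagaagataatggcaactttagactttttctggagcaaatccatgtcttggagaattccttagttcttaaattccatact
Mup14 (chr4:61303324-61303413): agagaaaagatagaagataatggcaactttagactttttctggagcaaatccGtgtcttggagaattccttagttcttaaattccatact
Mup17 (chr4:61595195-61595284): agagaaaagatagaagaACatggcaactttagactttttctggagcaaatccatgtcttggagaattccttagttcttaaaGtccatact
Mup20 (chr4:62053482-62053571): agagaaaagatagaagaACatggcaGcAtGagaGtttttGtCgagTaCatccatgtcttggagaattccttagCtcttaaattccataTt
Mup21 (chr4:62150197-62150286): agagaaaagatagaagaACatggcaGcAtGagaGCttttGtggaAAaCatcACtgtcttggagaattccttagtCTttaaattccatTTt

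Mup1, Mup2 and Mup11 were identical over this stretch, and Mup7, Mup10 and Mup14 each had 1 unlike base. Mup17 had 3, Mup20 had 12, Mup21 had 17 and Mup3 had 18. The same contrast held along the whole transcript. Only 2.94% of all 100-base windows of the Mup3 transcript and 4.5% of those of Mup21 occurred in another gene, each in the other of this pair. For Mup20 the share was 38.8%, all of it shared with the pseudogene Mup-ps19. It rose from 59.4% in Mup17 to 83.5% in Mup11, 85.4% in Mup10, 87.1% in Mup7, 87.2% in Mup1, 91.4% in Mup14 and 97.3% in Mup2, which shared windows with 16 or 17 other genes of the family. With windows of 150 bases, Mup3 and Mup21 shared none and Mup2 still shared 90.7%. How the counting treated reads that match several genes is not given in the sources used here. The counts of these 7 members are therefore uncertain as measures of single genes, whereas those of Mup3 and Mup21, and less so Mup20, rest on sequence of their own.

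Promoter sequence was available from RefSeq (GRCm38.p6) for Mup2, Mup3, Mup7, Mup10, Mup11, Mup14, Mup17 and Mup21. In 5 of these 8 the 250 bases before the annotated start held the letters TATATAA on either strand, against 3.04% of 32851 promoters of all genes, and these letters were picked after the sequences were seen. The 60 bases before the start are printed for the 5, with the match in capitals, since it is the element that members of both kinds have in common.
Mup10 (chr4:60582156-60582215): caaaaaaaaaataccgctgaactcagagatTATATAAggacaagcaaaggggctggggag
Mup17 (chr4:61595833-61595892): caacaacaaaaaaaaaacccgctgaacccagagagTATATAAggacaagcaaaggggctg
Mup2 (chr4:60139857-60139916): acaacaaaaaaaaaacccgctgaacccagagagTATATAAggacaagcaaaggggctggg
Mup21 (chr4:62150842-62150901): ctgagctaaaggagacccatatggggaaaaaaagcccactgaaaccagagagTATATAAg
Mup3 (chr4:62087318-62087377): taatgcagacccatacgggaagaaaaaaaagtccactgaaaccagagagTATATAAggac

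The letters TTCNNNGAA, which Stat5 proteins are known to bind, were in none of the 8 windows and in 7.02% of all promoters. The letters AGAACA, part of the site of the glucocorticoid receptor, were in the windows of Mup3 and Mup21 and in 16.1% of all promoters, both strands counted. No match says only that these letters are absent from this window.

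The members differed greatly in level. Per transcript length, Mup3 was the highest, with a median of 4797 FPKM (fragments scaled to transcript length and library size) over the 24 livers, followed by Mup7 with 3619. Mup20, which encodes the male pheromone darcin, had a median of 761 FPKM, Mup17 of 670 and Mup21 of 146. The medians of Mup14 and Mup11 were 104 and 85.6 FPKM, and those of Mup1, Mup2 and Mup10 were 12.1, 4.24 and 0.919. Albumin (Alb), the most abundant protein of plasma, had a median of 29073 FPKM in the same livers. Mup12, a row outside the 10, had a median of 3083 FPKM, so a family member not described here was among the 3 highest.

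Together the members took between 0.380% and 2.85% of all counted reads of a library. In the ff;ff livers they took 2.85%, 1.55%, 1.2% and 1.68%, a mean of 1.82% ± 0.719 (SD, n = 4). In the Cpt2L-/- livers they took 0.436%, 0.796%, 1.02% and 0.782%, a mean of 0.758% ± 0.241, so that all 4 lay below all 4 ff;ff livers. The DKO livers had 0.840%, 0.862%, 0.661% and 2.04%, of which only replicate 4 reached the ff;ff range. The Rab30L-/- livers had 2.21%, 0.942%, 0.868% and 1.57% and overlapped with ff;ff. The Rab30KO livers had 1.76%, 1.19%, 1.75% and 0.744%, and the Rab30 Ctrl livers had 1.13%, 1.18%, 0.380% and 1.28%, again overlapping. The whole family, all 48 rows counted, took 0.495% to 3.71% of a library.

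**Figure D1:**
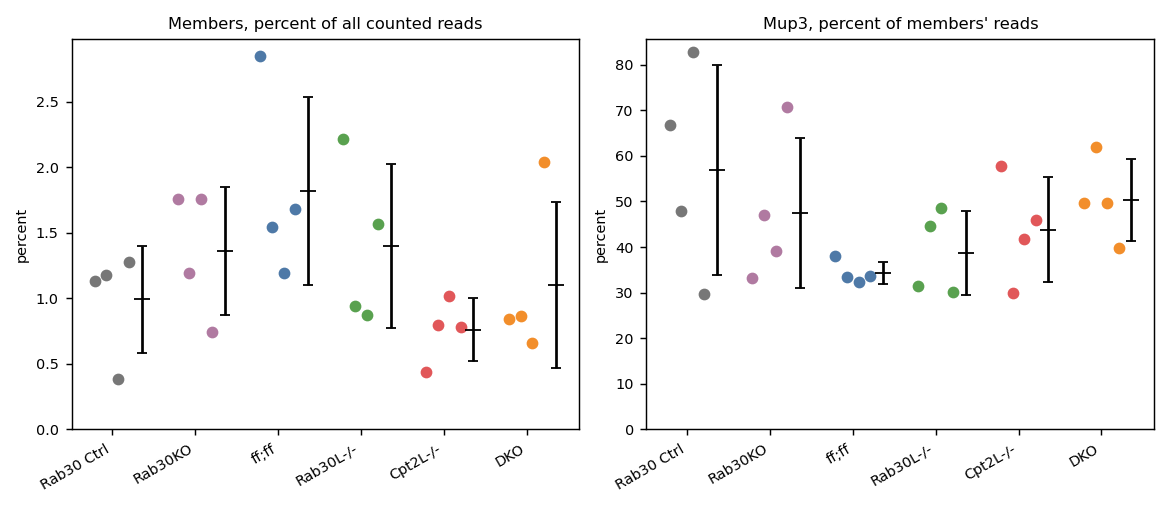
Share of all counted reads taken by the 10 Mup members (left) and share of the members' reads taken by Mup3 (right), in percent on linear axes. Points are single livers in order of replicate, and the bars beside them give mean and SD of 4; the Cpt2L-/- livers lie at 0.436% to 1.02% in the left panel, below the 4 ff;ff livers at 1.2% to 2.85%.

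The mix of members also differed between livers. In ff;ff, Mup3 made up 34.3% ± 2.48 (SD, n = 4) of the members' reads and Mup7 44.9% ± 5.77. In Rab30 Ctrl, Mup3 made up 66.9%, 47.9%, 82.9% and 29.7%, whereas Mup7 made up 15.6%, 7.04%, 7.34% and 52.0%. Livers of 1 genotype could thus be led by either gene.

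Most calls among the members fell in the libraries labelled Cpt2L-/-. Between these and the ff;ff livers, 8 of the 10 members passed edgeR's quasi-likelihood test at an adjusted p under 0.05 with a change of at least 1.2-fold, all of them lower in Cpt2L-/-. Of 13270 genes tested, 23.8% passed in either direction and 11.9% passed as lower. The median log2 fold change was -1.80 over the members and -0.0035 over all genes. All 10 members had a negative value.

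Mup3, the member with the smallest share of windows in common with other genes, measured 12499.5, 5329, 4251 and 5747 CPM in the ff;ff livers. In the Cpt2L-/- livers it measured 2229.7, 2088, 3928 and 3118 CPM. The groups did not overlap, and ff;ff replicate 1 stood well above the others. The log2 fold change was -1.31 (SE 0.33, edgeR adjusted p = 0.0123), which is 2.47-fold lower.

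Mup20 measured 3431, 1060.5, 1499 and 1383 CPM in ff;ff and 254, 705, 694 and 472 CPM in Cpt2L-/-. Every Cpt2L-/- liver lay below every ff;ff liver. The log2 fold change of this pheromone gene was -1.81 (SE 0.42, edgeR adjusted p = 0.0115). Mup21, the closest relative of Mup3, measured 204, 142, 65.4 and 34.4 CPM in ff;ff and 17.6, 25.3, 63.5 and 42.0 CPM in Cpt2L-/-. Its groups overlapped, and its log2 fold change of -1.61 (SE 0.63) did not pass, with an edgeR adjusted p of 0.113.

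Among the near-identical members, Mup7 measured 12264, 7590, 6668 and 7559 CPM in ff;ff against 1296, 3099, 4123 and 2799 CPM in Cpt2L-/-. The groups were apart, and the log2 fold change was -1.61 (SE 0.31, edgeR adjusted p = 0.00248). Mup11 measured 1064, 868, 231 and 465 CPM in ff;ff and 38.2, 147, 99.5 and 102 CPM in Cpt2L-/-. It too was apart between the groups, with a log2 fold change of -2.78 (SE 0.57, edgeR adjusted p = 0.00864). Mup14 measured 589, 43.4, 145 and 599 CPM in ff;ff and 8.46, 34.1, 36.8 and 27.7 CPM in Cpt2L-/-. Its fall was the largest among the members, with a log2 fold change of -3.69 (SE 0.96, edgeR adjusted p = 0.0326). The ff;ff livers alone spread from 43.4 to 599 CPM.

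Mup1, known as a circulating regulator of energy metabolism besides its role in urine, measured 38.4, 18.7, 19.9 and 20.2 CPM in ff;ff. In Cpt2L-/- it measured 1.41, 2.14, 2.14 and 4.5 CPM. It had the smallest adjusted p of the 10, with a log2 fold change of -3.26 (SE 0.36, edgeR adjusted p = 5.94e-05), which is 9.55-fold lower. Mup10 measured 2.71, 2.60, 3.0 and 2.16 CPM in ff;ff and 0.192, 0.944, 0.971 and 0.125 CPM in Cpt2L-/-. These were 31 to 44 reads per ff;ff library and 2 to 15 per Cpt2L-/- library, apart between the groups, with a log2 fold change of -2.23 (SE 0.49, edgeR adjusted p = 0.00521). Mup2 measured 5.68, 3.96, 1.81 and 2.73 CPM in ff;ff and 0.448, 1.01, 0.712 and 2.68 CPM in Cpt2L-/-. The groups overlapped through Cpt2L-/- replicate 4, and the log2 fold change was -1.54 (SE 0.51, edgeR adjusted p = 0.0458).

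Mup17 measured 2867, 939, 271 and 1292 CPM in ff;ff and 17.7, 872, 457 and 220.5 CPM in Cpt2L-/-. Its log2 fold change of -1.79 (SE 1.15) was close to that of Mup20 but did not pass, with an edgeR adjusted p of 0.324. The 2 groups overlapped. When a single fit over all 24 libraries set the spread, only Mup1 and Mup3, 2 of the 10 members, passed in this comparison, against 23.8% of all genes. Without the filter on low counts 5 passed, against 13.7% of all genes, and Mup3, Mup14 and Mup20 did not. Leaving out any 1 library gave 6 to 8, with 17.4% to 25.4% of all genes, and the call of Mup14 was lost without any of 6 of the 8 libraries, as was that of Mup2.

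Other transcripts moved with this result. Alb fell from 83067 ± 10091 CPM (SD, n = 4) in ff;ff to 31608 ± 4543 in Cpt2L-/-, a log2 fold change of -1.41 (SE 0.19, edgeR adjusted p = 0.00016). Set against Alb in the same library, the summed members were at 23.6% ± 8.45 in ff;ff and 21.7% ± 7.02 in Cpt2L-/-, and these ranges overlapped. The 6 hepatocyte markers, of which Alb is 1 and the largest part, summed to 97320 to 126549 CPM in ff;ff and to 47582 to 59493 in Cpt2L-/-. Of these markers 3 of 6 passed as lower, where 11.9% of all genes did. Of the other marker lists, 3 of 6 macrophage, 3 of 4 blood, 1 of 5 endothelial and 1 of 4 bile duct genes passed as lower, and none of 5 stellate genes passed. Macrophage markers summed to 129 to 244 CPM in ff;ff and 105 to 159 in Cpt2L-/-, and blood markers to 177 to 584 and 66.8 to 141 CPM. The part of these transcripts in the members' change was not tested.

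**Figure D2:**
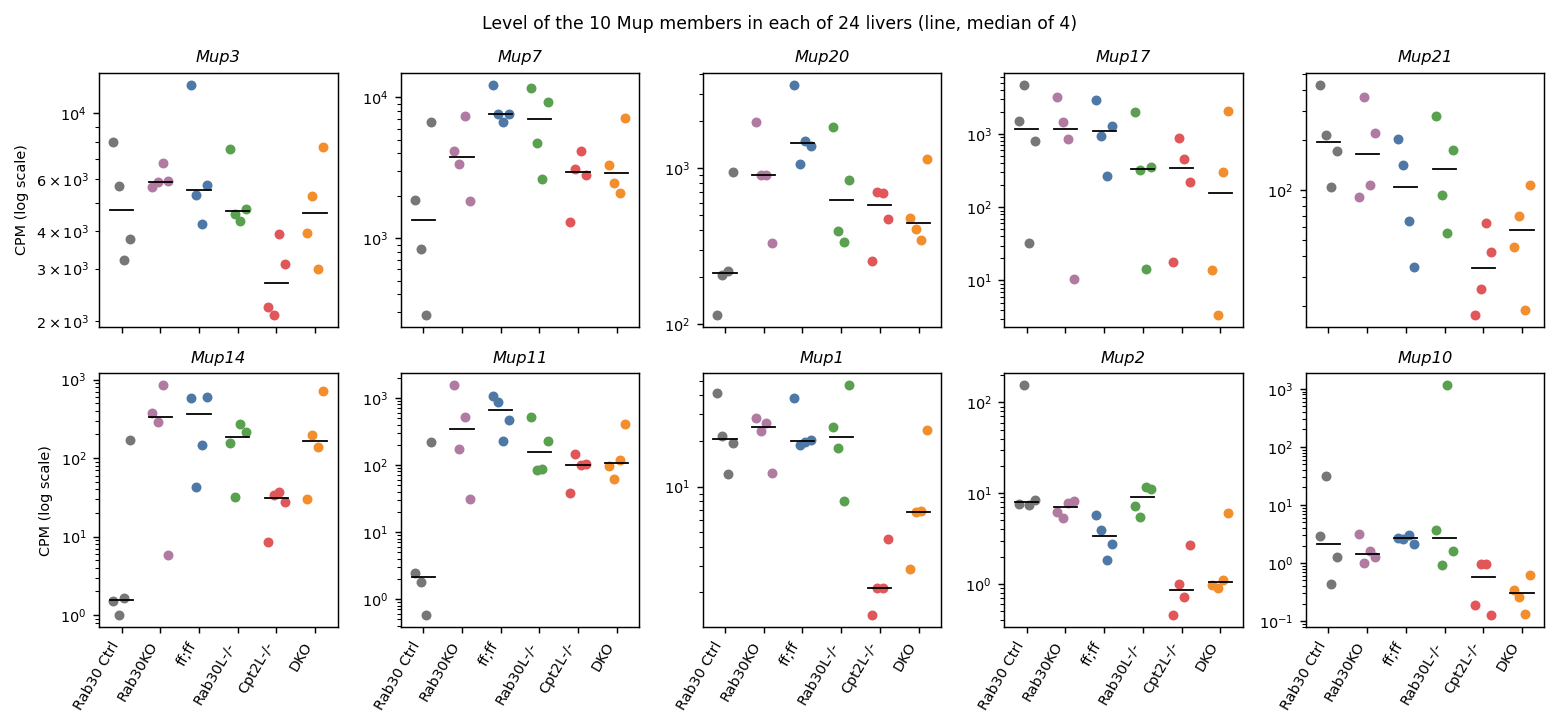
Level of each of the 10 Mup members in each of 24 livers, in CPM on a logarithmic axis whose range differs between panels, with genes ordered by median FPKM. Points are single livers and lines are medians of 4; in Cpt2L-/- the points for Mup1 (1.41 to 4.5 CPM) lie below all ff;ff points (18.7 to 38.4 CPM), and single livers stand far out for Mup10 in Rab30L-/- and Mup2 in Rab30 Ctrl.

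In the libraries labelled DKO 2 of 10 members passed against ff;ff, both as lower, and the fitted log2 fold change was below 0 for all 10 (for Mup14, at -0.35, it was 0.032 to 0.056 without DKO replicate 1, ff;ff replicate 1 or ff;ff replicate 4). Of 13389 genes tested, 16.1% passed in either direction and 8.24% as lower. The median log2 fold change was -1.19 over the members and -0.018 over all genes. Mup10 measured 0.349, 0.258, 0.130 and 0.610 CPM in the DKO livers, 2 to 13 reads each, and all 4 lay below the ff;ff livers. Its log2 fold change was -2.88 (SE 0.41, edgeR adjusted p = 0.000768). Mup20 measured 479, 406, 346 and 1143 CPM in DKO, with a log2 fold change of -1.64 (SE 0.47, edgeR adjusted p = 0.0417). Mup7 measured 3323, 2482, 2100.4 and 7173 CPM, and its log2 fold change of -1.18 (SE 0.37) had an edgeR adjusted p of 0.0501. In the same comparison Alb fell by 0.87 on the log2 scale (SE 0.19, edgeR adjusted p = 0.00961). The hepatocyte markers, Alb included, summed to 63190 to 80255 CPM in DKO and the macrophage markers to 109 to 129 CPM. The summed members were at 23.2% ± 14.4 (SD, n = 4) of Alb. The part of these transcripts was not tested here either.

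DKO replicate 4 was the highest of the 4 DKO livers for all 10 members. It held 23.5 CPM of Mup1, where the others held 2.86 to 6.89, and 405 CPM of Mup11, where the others held 62.1 to 117. Without it 6 of 10 members passed against ff;ff, where 12.3% of all genes passed, and without any other single library 1 or 2 passed. The call of Mup20 was lost without any of 6 of the 8 libraries, with edgeR adjusted p up to 0.111.

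The comparison of the libraries labelled DKO with those labelled Cpt2L-/- was designed to ask about Rab30 where Cpt2 is also deleted, and no member passed in it. Of 13306 genes tested, 2.71% passed. Of the members 9 could be tested, all with a positive log2 fold change, at a median of 0.81 against -0.0031 for all genes. Mup10 had too few reads to enter. Without DKO replicate 4, the high liver described above, the value was below 0 for 5 of the 9 (Mup2, Mup7, Mup11, Mup17 and Mup20) and no member passed. The values of Mup1, Mup3 and Mup14 were then 1.13, 0.54 and 2.20. At an unadjusted edgeR p under 0.05 with all libraries there were 3, namely Mup1 at 1.99 (SE 0.63), Mup3 at 0.82 (SE 0.29) and Mup14 at 3.34 (SE 0.99), each with an adjusted p between 0.125 and 0.140. Of the 13306 genes, 2816 had such an unadjusted p with a change of at least 1.2-fold. Mup3 measured 3952, 5276, 2983 and 7697 CPM in the DKO livers and overlapped with the Cpt2L-/- livers. By the DESeq2 Wald test 2 members passed, against 7.76% of all genes, and by limma-voom 1, against 11.5% of all genes. Alb averaged 45805 ± 5999 CPM (SD, n = 4) in DKO and 31608 ± 4543 in Cpt2L-/-. Hepatocyte markers, Alb included, summed to 63190 to 80255 CPM in DKO and 47582 to 59493 in Cpt2L-/-. The part of these transcripts in the members' values was not tested.

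The 4 groups of floxed mice also allow a test of whether the difference between Rab30 genotypes depended on the labelled Cpt2 genotype. Of 14063 genes, 4.06% passed this interaction test, and none of the 10 members did. At an unadjusted edgeR p under 0.05 there were 4 (Mup1, Mup3, Mup11 and Mup14), with interaction terms of 1.99, 1.21, 2.33 and 4.37 on the log2 scale and adjusted p between 0.104 and 0.223. Of the 14063 genes, 3056 had such an unadjusted p. By the DESeq2 Wald test 1 member passed, against 7.68% of all genes.

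The libraries labelled as deleted for Rab30 alone were compared in the same way. Between Rab30L-/- and ff;ff livers no member passed, against 0.479% of 13367 genes. At an unadjusted edgeR p under 0.05 with at least 1.2-fold there were 1495 of these genes and 2 of the 10 members. One was Mup2, at 7.25, 5.53, 11.8 and 11.1 CPM in Rab30L-/-, with a log2 fold change of 1.34 (SE 0.35, edgeR adjusted p = 0.160). The other was Mup10, whose value of 6.77 (SE 2.72, edgeR adjusted p = 0.438) came from 1 library. Rab30L-/- replicate 3 held 1165 CPM of Mup10, that is 27782 reads, whereas the other 3 held 0.907 to 3.77 CPM. One member passed by the DESeq2 Wald test, against 2.23% of all genes, and 1 without the filter on low counts, against 0.923%. Mup3 measured 7614, 4595, 4335 and 4773 CPM in Rab30L-/-, at a log2 fold change of -0.38 (SE 0.33, edgeR adjusted p = 0.713).

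Between Rab30KO and Rab30 Ctrl no member passed either, against 0.022% of 13656 genes. None had an unadjusted edgeR p under 0.05, where 302 of these genes did with at least 1.2-fold. No member passed by any of the other 6 settings tried, the DESeq2 Wald test and limma-voom included. Mup3 measured 5646, 5858, 6822 and 5925 CPM in Rab30KO and 8044, 5683, 3209 and 3787 CPM in Rab30 Ctrl, with a log2 fold change of 0.22 (SE 0.26). The fitted values of the other members ranged from -2.70 to 3.33, with standard errors up to 2.17 on the log2 scale. For Mup11, Mup14 and Mup17 the standard errors were 1.65 to 2.17, so that fold changes of that size were not detectable there.

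Both groups spread widely for these members. In Rab30 Ctrl, Mup11 measured 2.44, 1.78, 0.569 and 219 CPM and Mup14 measured 1.51, 0.988, 1.64 and 168 CPM. These were 9 to 42 and 20 to 26 reads in replicates 1 to 3, and 3231 and 2473 reads in replicate 4. In the same 3 livers Mup-ps7 was listed at 0 and Mup-ps16 at 0 to 3 reads, whereas replicate 4 had 15 and 63. Mup7 was also lower in these 3, at 1872, 835 and 284 CPM against 6622 in replicate 4, and Mup20 at 114, 207 and 219 CPM against 950. Whether these livers carried the same strain form of the locus as the others was not tested. Their Mup counts, and the sums over members, may therefore not be comparable with those of other livers. Their Mup17 was not low throughout, at 1516, 4702 and 32.7 CPM. In Rab30KO, replicate 4 was the lowest for Mup11 and Mup14 at 31 and 5.82 CPM, where the others held 175 to 1561 and 287 to 854 CPM. Mup17 ranged from 10.6 to 3228 CPM in Rab30KO.

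Mup2 and Mup10 were also set by 1 control liver. Rab30 Ctrl replicate 2 held 156 CPM of Mup2, where the other 3 held 7.40 to 8.41, and 30.9 CPM of Mup10, where the others held 0.443 to 2.96. Between ff;ff and Rab30 Ctrl, both without a deletion but from different crosses, no member passed, against 0.949% of 13587 genes. At an unadjusted edgeR p under 0.05 with at least 1.2-fold there were 1800 of these genes and 2 of the 10 members. Without Rab30 Ctrl replicate 4, 4 members passed as higher in ff;ff (Mup7, Mup11, Mup14 and Mup20), against 1.28% of all genes in either direction. Macrophage markers summed to 305 to 503 CPM in Rab30 Ctrl and 129 to 244 in ff;ff, whereas the sums of hepatocyte markers overlapped. The part of these transcripts was not tested.

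Between DKO and Rab30L-/- livers 1 of 10 members passed, as lower, against 30.7% of 13292 genes in either direction and 15.8% as lower. This was Mup2, at 0.977, 0.903, 1.11 and 6.0 CPM in DKO and a log2 fold change of -1.94 (SE 0.61, edgeR adjusted p = 0.0420). Its call was lost when any of 7 of the 8 libraries was left out. Mup10 had a log2 fold change of -9.63 (SE 3.27, edgeR adjusted p = 0.0705), set by the same Rab30L-/- replicate 3. The comparisons above share groups, so their results are not independent of each other.

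**Figure D3:**
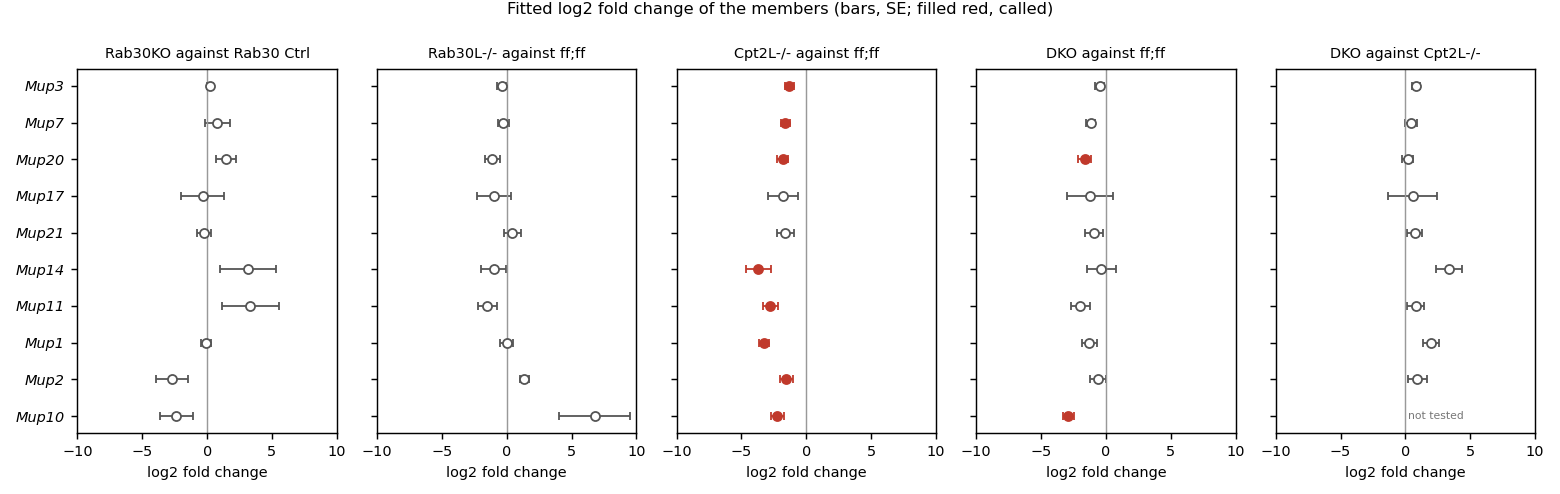
Fitted log2 fold change of each member in 5 comparisons (points) with its SE (bars), genes ordered by median FPKM. Filled red points passed the test and open grey points did not; all 10 points lie below 0 in Cpt2L-/- against ff;ff, and the widest bar is that of Mup10 in Rab30L-/- against ff;ff (SE 2.72).

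The spread between livers of a genotype was larger for the members than for most genes. The biological coefficient of variation estimated by edgeR over all 24 libraries was 0.330 for Mup3, 0.502 for Mup1, 0.569 for Mup21, 0.592 for Mup20 and 0.604 for Mup7. It was 0.736 for Mup2 and 1.07, 1.12, 1.2 and 1.28 for Mup11, Mup14, Mup10 and Mup17. The median of 14584 genes was 0.226, and Mup3 lay above 74.9% of them and Mup17 above 99.9%. Mup17 ranged from 3.36 to 4702 CPM over the 24 livers. The sum over members had a median coefficient of variation within groups of 43.2%, between the 35.6% of Mup3 and the 52.7% to 107% of the other members.

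Levels of members were also related among livers of a genotype. With group means taken out, the Pearson r of log2 levels over 24 livers had a median of 0.39 over the 45 pairs and was above 0.5 in 14 of them. These correlations are a description, since pairs share libraries and may share reads. Mup7 and Mup11 had r = 0.84, and Mup11 and Mup20 also had r = 0.84. The latter 2 transcripts share no window of 100 bases. Mup3 and Mup21 had r = 0.75, whereas Mup3 and Mup20 had r = 0.28. Mup10 was apart, with r between -0.30 and 0.07 to every other member but Mup2. Spearman rho for these pairs was -0.04 to 0.21, and Rab30L-/- replicate 3 stood far out for Mup10.

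**Figure D4:**
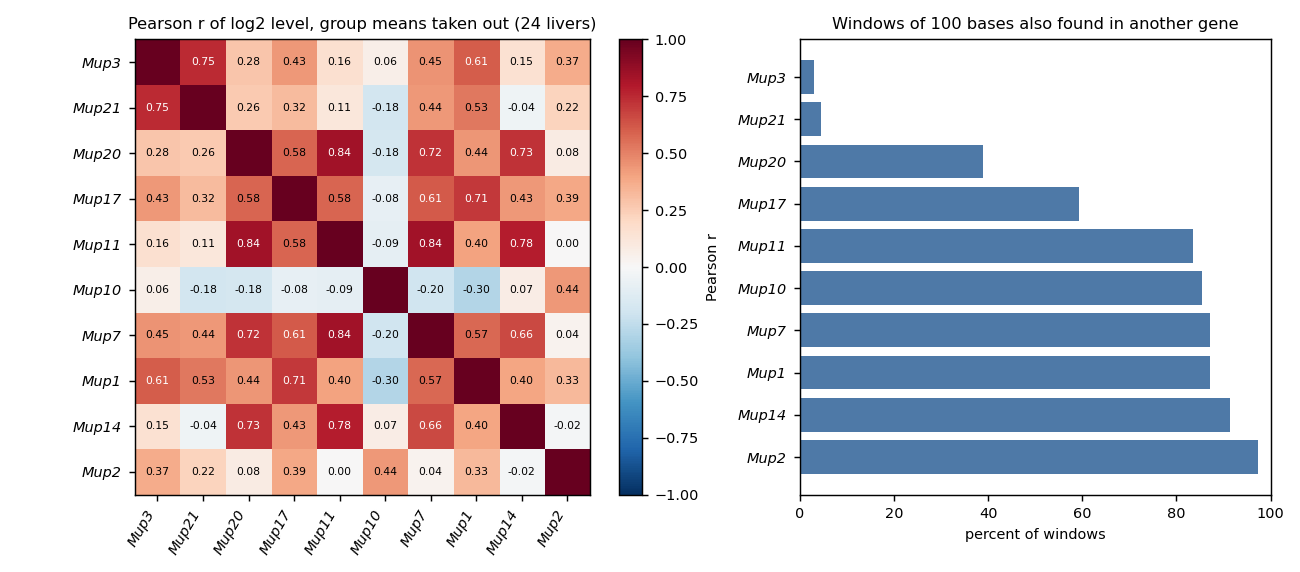
Pearson r between members' log2(CPM + 0.5) after group means were taken out, over 24 livers (left), and percent of 100-base windows of each transcript that occur in another gene (right), both ordered by that share. Mup3 and Mup21, at 2.94% and 4.5% shared windows, have r = 0.75, and Mup11 has r = 0.84 with both Mup7 and Mup20.

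The genes outside the family whose level followed the summed members most closely were sought among 7863 genes. Over the 24 livers these were Cyp7b1, a male-biased oxysterol hydroxylase (Pearson r = 0.84, Spearman rho = 0.84), Dnajc3, a co-chaperone of the endoplasmic reticulum (0.83 and 0.87), C6, a component of complement (0.82 and 0.86), Txndc15 (0.79 and 0.77) and Ero1lb, an oxidase for disulfide formation (0.77 and 0.79). After group means were taken out they were Pdia6, a disulfide isomerase (0.87 and 0.85), Ces3a, a carboxylesterase (0.84 and 0.86), Sec11c, a subunit of the signal peptidase (0.83 and 0.86), Cyp7b1 (0.81 and 0.84) and Ugt2b1, a glucuronosyltransferase (0.81 and 0.82). Without the 2 livers farthest from the median of the sum, r was still 0.78 to 0.86 for these genes. As the closest of 7863, they are given as a description.

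Genes of the pathways known to act on Mup genes were examined in Cpt2L-/- against ff;ff. Of 12 genes of growth hormone signalling, 1 passed as higher and 3 as lower, with a median log2 fold change of -0.71. Of all genes tested, 23.8% passed in either direction and 11.9% as lower. The growth hormone receptor Ghr fell by 1.15 (SE 0.27, edgeR adjusted p = 0.00804), its target Igf1 by 0.86 (SE 0.21, edgeR adjusted p = 0.00894) and Igfals, which carries Igf1 in plasma, by 1.11 (SE 0.29, edgeR adjusted p = 0.0147) on the log2 scale. Stat5a rose by 0.64 (SE 0.15, edgeR adjusted p = 0.00824). Stat5b, the main Stat5 of liver, had a value of -0.07 (SE 0.18) and the feedback inhibitor Socs2 one of 0.21 (SE 0.53), and neither passed.

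Of 10 hormone receptors and other regulators, 3 passed as lower and none as higher, where 11.9% of all genes passed as lower. Hsd11b1, which regenerates active glucocorticoid, fell by 2.19 (SE 0.15, edgeR adjusted p = 1.63e-06), and the thyroid hormone receptor Thrb by 0.61 (SE 0.16, edgeR adjusted p = 0.0149). The hepatocyte transcription factor Cebpa fell by 0.54 (SE 0.17, edgeR adjusted p = 0.0294). The glucocorticoid receptor Nr3c1 had a log2 fold change of -0.44 (SE 0.20, edgeR adjusted p = 0.121) and the repressor Zhx2 of 0.04 (SE 0.19). In DKO against ff;ff, Ghr, Igf1 and Igfals had values of -0.64, -0.42 and -0.97 and did not pass, whereas Stat5a was higher at 0.69 (SE 0.16, edgeR adjusted p = 0.0103). In the same comparison, where 8.24% of all genes passed as lower, 3 of the 10 regulators did so, namely Hsd11b1 at -1.26 (SE 0.21), Cebpa at -0.86 (SE 0.21) and Cebpb at -1.03 (SE 0.30), with edgeR adjusted p of 0.00173, 0.0161 and 0.0389.

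Of 12 genes of male-biased expression outside the family, 11 could be tested in Cpt2L-/- against ff;ff, at a median log2 fold change of -0.20. Of them 4 passed as lower and none as higher. These were Cyp7b1 at -2.30 (SE 0.31), the organic anion transporter Slco1a1 at -1.59 (SE 0.28), C6 at -1.41 (SE 0.21) and Cyp2d9 at -0.88 (SE 0.19) on the log2 scale. Of 13 genes of female-biased expression, 4 had enough reads to be tested and none passed. Among 9 other lipocalins tested, 5 passed as lower, among them Ambp at -0.85 (SE 0.19), Apom at -0.88 (SE 0.17), Rbp4, the plasma carrier of retinol, at -0.65 (SE 0.15) and Obp2a at -3.56 (SE 0.65). These shares stand beside the 11.9% of all genes that passed as lower. Of the other rows of the family with enough reads, 4 of 11 passed as lower, including Mup12 at -1.91 (SE 0.46, edgeR adjusted p = 0.0144).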

How the data were processed

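Whole-liver RNA was sequenced from 24 fasted male mice, 4 in each of 6 genotypes given by the sample labels. Novogene made and sequenced the libraries. The submitters' processing notes name HISAT2, DESeq2, GRCm38 and mm10. The counter, the annotation, strand and the treatment of reads matching several genes are not given in the sources used here. The authors deposited raw counts per gene as whole numbers. They also deposited FPKM, which equals count over length and library total times 1 factor per library (0.875 to 1.17). Tables of the authors' own fold changes and p-values, and a table of normalized counts, were not used.

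Every column matched 1 label, and 0 columns of values were left over. Replicates of a group differed beyond sampling noise in all 36 pairs. Replicates are separate mice per the study, and replicate numbers follow the order of the samples and pair nothing. Depth was 11801027 to 24497738 counts.

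Each comparison was fitted on its own groups with edgeR 4.0.16 (filterByExpr, TMM, robust quasi-likelihood), with Benjamini-Hochberg adjustment over all genes tested. A gene passed at an adjusted p under 0.05 and at least 1.2-fold, the interaction at an adjusted p under 0.05. CPM were scaled by TMM over 24 libraries. Logs outside the fits used CPM + 0.5. Alternatives were DESeq2 1.42.0 (size factors alone, and its Wald test), limma 3.58.1 voom with quality weights, 1 fit over 24 libraries, no filter, family rows left out of library sizes, and each library left out. On simulated data with 200 genes changed 2-fold among 13270, edgeR recovered 57.0% in Cpt2L-/- against ff;ff.

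Shared windows, coding identity and coordinates came from GENCODE M21 (GRCm38), taking per gene the coding transcript nearest 540 bases in coding length. The members and the gene lists were chosen with earlier results of these data known. All 10 members were named, other family rows with a mean of at least 10 counts by name where they bear on a member, list genes by smallest p in Cpt2L-/- against ff;ff (up to 4) with Stat5b, Ghr, Igf1, Socs2, Nr3c1 and Zhx2, and the 5 closest genes by Pearson r among those with a mean of at least 10 CPM. The value of 1 further list gene is not reported here.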

Additional observations from a re-analysis of the deposited data

Results flagged for a closer look

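Among 66 sets of 4 livers, 10 members and their sum in each of 6 groups, 7 had 1 liver so far from the other 3 that the gap exceeded the limit of a Dixon test on the log2 scale. Chance flags about 1 in 20 such sets. Rab30L-/- replicate 3 held 1165 CPM of Mup10 against 0.907 to 3.77 in the other 3, and Rab30 Ctrl replicate 2 held 156 CPM of Mup2 against 7.40 to 8.41. Rab30 Ctrl replicate 4 held 168 CPM of Mup14 against 0.988 to 1.64. DKO replicate 4 held 6.0 CPM of Mup2 against 0.903 to 1.11. ff;ff replicate 1 held 38.4 CPM of Mup1 against 18.7 to 20.2, and Rab30L-/- replicate 1 held 7614 CPM of Mup3 against 4335 to 4773. Rab30 Ctrl replicate 3 had the lowest sum of members in its group, at 3871 CPM against 11852 to 12740.1 in the other 3. No cause was tested for any of these.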

How the results depend on the processing

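No alternative reversed the direction of a member that passed in its comparison. Members that had not passed changed sign in every comparison but Cpt2L-/- against ff;ff, among them 5 of 9 in DKO against Cpt2L-/- without DKO replicate 4. Shares in parentheses are those of all genes that passed under the same setting. Against ff;ff, the number of members that passed in Cpt2L-/- was 2 in the fit over 24 libraries (23.8%) and 5 without a filter on low counts (13.7%), and 6 to 8 with 1 library left out (17.4% to 25.4%). In DKO against ff;ff it was 6 by limma-voom (27.9%), 0 in the fit over 24 libraries (18.0%), 1 without a filter (9.11%), and 1 to 6 with 1 library left out, the 6 without DKO replicate 4 (12.3%). In DKO against Cpt2L-/- it was 2 by the DESeq2 Wald test (7.76%) and 1 by limma-voom (11.5%), in Rab30L-/- against ff;ff 1 by the DESeq2 Wald test (2.23%) and 1 without a filter (0.923%), and in the interaction 1 by the DESeq2 Wald test (7.68%). In DKO against Rab30L-/- it was 0 without a filter (15.5%) and 0 to 1 with 1 library left out. In ff;ff against Rab30 Ctrl it was 1 by the DESeq2 Wald test (4.16%), 1 in the fit over 24 libraries (2.07%), and 0 to 4 with 1 library left out, the 4 without Rab30 Ctrl replicate 4 (1.28%). The cause of these changes was not tested, except that the fit over 24 libraries takes its spread also from the groups in which single livers stood far out. The summed members stayed within 1 SD of their value under every alternative tried, at 29.7% to 43.8% of the ff;ff mean for Cpt2L-/- (34.1% with all libraries). No paired analysis was possible because the replicate numbers follow the order of the samples and the groups carry no shared number in the labels. At this depth Mup10 rests on 2 to 44 reads in the Cpt2L-/- and ff;ff libraries.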

Other observations

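The share of family reads that fell on the 10 members was 56.3% to 88.0% over the 24 livers, and lowest in Rab30 Ctrl replicate 2. In that liver Mup12 held 8337 CPM, and Mup17 held 4702 CPM, its highest value among the 24 livers. Mup12 ranged from 446 to 11479 CPM over all livers, lowest in Cpt2L-/- replicate 1 and highest in Rab30L-/- replicate 1. Its within-group spread in Rab30L-/- was 86.0% of its mean.

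Rows of the family that reached few livers at high level included Mup15 at 2249 CPM in 1 DKO liver, against 7.54 CPM in the lowest of that group. Mup16 had its highest group mean in Rab30L-/- at 601 ± 492 CPM (SD, n = 4), against 176 ± 92.1 in ff;ff. These rows share 72.4% to 90.7% of their 150-base windows with other genes of the family.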
